A study of Mus musculus with 6 samples.

Results

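The genes examined were the lipins (Lpin1, Lpin2 and Lpin3) and the enzymes that assemble triglyceride from glycerol 3-phosphate or monoacylglycerol (Gpam, Agpat9, Agpat2, Agpat3, Mogat1, Dgat1 and Dgat2). They were taken by symbol from the deposited expression table, where all 10 were found among 24346 rows. RNA sequencing had been done on liver tissue of C57BL/6 mice, with 3 livers in each of 2 groups. The question of the comparison was how hepatic transcription differed when lipid droplets were sent to autophagy (lipophagy) in a mouse model of nonalcoholic steatohepatitis (NASH).

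Per the study's methods the mice were male C57BL/6J and 8 weeks old when they were put on CDAHFD, a high-fat diet without choline and with defined amino acids, which they ate for 6 weeks. They were then returned to normal chow, and livers were taken 2 weeks later. Every mouse received an adeno-associated virus (AAV8) whose TBG promoter restricts expression to hepatocytes. In both groups the virus encoded mCherry and LDTS, a lipid droplet-targeting sequence from perilipin 1 that the study describes as mildly lipogenic by itself. In the Lipophagy group LDTS was joined to eLIR, an engineered LC3-interacting region that recruits autophagosomes, and in the Control group to LIR mut, a mutant that does not bind LC3. An untreated or LDTS-free group was not analysed here, so values describe eLIR against LIR mut on the same lipogenic background. The labels number the livers of each group but do not say more about the animals, and p-values measure the spread between these livers.

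Triglyceride is built in the endoplasmic reticulum by a chain of acyl transfers. Glycerol-3-phosphate acyltransferases (GPAT) add the first fatty acid, acylglycerolphosphate acyltransferases (AGPAT) add the next to give phosphatidic acid, lipins remove the phosphate to give diacylglycerol, and diacylglycerol acyltransferases (DGAT) add the last. Monoacylglycerol acyltransferases (MGAT) reach diacylglycerol by another route. Lipin 1 also enters the nucleus, where it acts as a coactivator of PPARα and PGC-1α target genes, and its transcript is known to respond to fasting and glucocorticoids in liver.

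Lpin1 and Dgat2 were the members that stood apart between the groups. Mean Lpin1 was 4.13 times and mean Dgat2 1.53 times as high in Lipophagy livers as in Control livers, and for both every Lipophagy liver lay above every Control liver. None of the 10 members had an adjusted p below 0.05 (limma, Benjamini-Hochberg over 11493 tested genes), against 0.0261% of tested genes, which were 3 genes. At an unadjusted p below 0.05 in limma, 2 of 10 members were higher and 0 were lower, against 11.5% and 7.97% of tested genes. Without Lipophagy liver 3, 2 were higher (Lpin1 and Dgat2) and 1 was lower (Agpat9), against 14.0% and 8.20% of the 11507 genes tested in that fit. Groups that did not overlap were found for 2 of 10 members in the higher direction and 0 in the lower, against 15.4% and 10.8% of tested genes. The median log2 change of FPKM + 1 was 0.18 over the members and 0.020 over all tested genes. The remaining 8 members overlapped between the groups, 6 with a higher and 2 with a lower mean. In this bulk tissue a smaller number of cells of a type and less RNA per cell cannot be told apart.

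**Figure D1:**
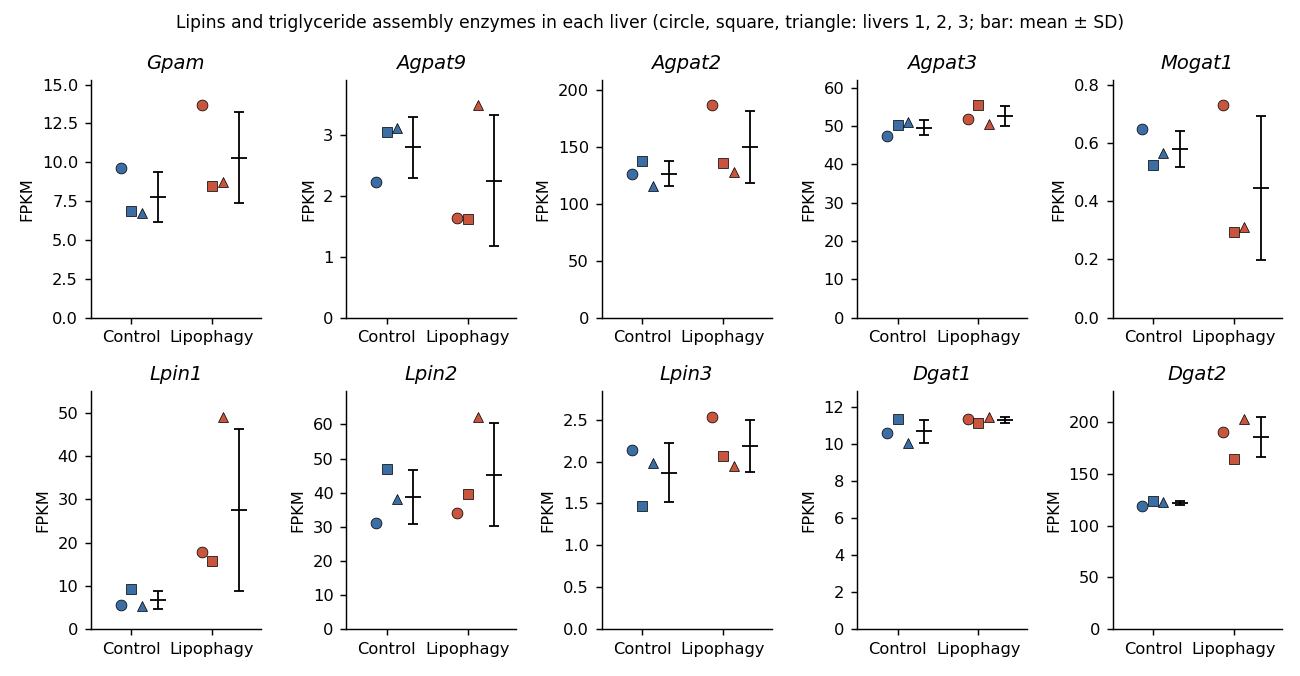
FPKM (y axis, linear, from 0) of each of the 10 genes in the 3 Control and the 3 Lipophagy livers, with the mean ± SD of each group beside the points. The groups are apart only for Lpin1 and Dgat2, and Lpin1 has a wide Lipophagy bar because liver 3 lies at 49.2 FPKM.

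The order of levels, in FPKM and therefore per transcript length, was read within each group. In Control livers Agpat2 and Dgat2 were highest with overlapping livers, followed by Agpat3, Lpin2, Dgat1, then Gpam and Lpin1 with overlapping livers, Agpat9, Lpin3 and Mogat1. In Lipophagy livers Dgat2 and Agpat2 again overlapped at the top. Lpin1 lay below Dgat1 in every Control liver and above it in every Lipophagy liver. It was below Lpin2 in all 6 livers, and its value of 49.2 FPKM in Lipophagy liver 3 alone fell within the Lpin2 range of that group.

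The upstream stretches of Lpin1 and Lpin2 are shown because they belong to the lipin whose groups were apart and to the most abundant lipin, whose groups overlapped. They are the 250 bases before an annotated transcript start (RefSeq, GRCm38.p6), Lpin1 from chr12:16610967-16611216 on the minus strand and Lpin2 from chr17:71183282-71183531 on the plus strand, with a matched motif in capitals.
Lpin1: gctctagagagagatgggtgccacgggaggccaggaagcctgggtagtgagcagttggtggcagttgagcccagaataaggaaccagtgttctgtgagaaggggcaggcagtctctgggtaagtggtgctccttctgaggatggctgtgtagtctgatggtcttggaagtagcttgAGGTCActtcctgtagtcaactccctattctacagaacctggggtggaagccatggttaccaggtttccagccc
Lpin2: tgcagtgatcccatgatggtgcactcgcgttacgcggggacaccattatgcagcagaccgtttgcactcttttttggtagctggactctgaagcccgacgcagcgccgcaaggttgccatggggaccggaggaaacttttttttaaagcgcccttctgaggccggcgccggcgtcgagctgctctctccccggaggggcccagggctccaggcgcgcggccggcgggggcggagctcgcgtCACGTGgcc
In the Lpin1 stretch the capitals mark AGGTCA, a nuclear receptor motif, whose first base lies 74 bases before the start. In the Lpin2 stretch they mark the E-box CACGTG, whose first base lies 9 bases before the start. Both strands were searched, and among 32851 such windows of all genes AGGTCA was in 14.0% and CACGTG in 6.02%. The set of windows used here held 8 of the 10 members (12 windows). Dgat1 and Dgat2 have annotated positions but no entry in that set. The letters ACANNNTGT of the glucocorticoid receptor palindrome (5.84% of all windows) occurred in none of the 12, and CCAAT (33.8% of all windows) occurred in windows of Gpam and Lpin2. AGGTCA was also in a Gpam window, 196 bases before the start, and of the 3 Lpin2 windows only the one shown held CACGTG. These matches describe the letters and were not tested as binding sites.

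The first step is catalysed by GPAT enzymes. Gpam, on chr19:55067268-55127238 (mm10, minus strand), encodes the mitochondrial GPAT1, a main hepatic form. Gpam was at 9.61, 6.86 and 6.76 FPKM in Control livers 1, 2 and 3 and at 13.7, 8.45 and 8.73 FPKM in Lipophagy livers 1, 2 and 3. Its highest value was in Lipophagy liver 1, and Control liver 1 lay above Lipophagy livers 2 and 3, so the groups overlapped. Means were 7.74 ± 1.61 and 10.3 ± 2.94 FPKM (SD, n = 3), and the log2 change was 0.35 (standard error 0.19, 95% interval -0.09 to 0.79, adjusted p = 0.335, limma). With 1 liver left out the change of Gpam ranged from 0.15 without Lipophagy liver 1 to 0.50 without Control liver 1.

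Agpat9, whose product is GPAT3 of the endoplasmic reticulum (named Gpat3 in GENCODE, chr5:100845713-100899102, plus strand), had the largest negative change of the members on the log2(FPKM + 1) scale, whereas Mogat1 was lower with a pseudocount of 0.1 (-0.40 against -0.38) and in the ratio of means (0.769 against 0.804). It stood at 2.22, 3.06 and 3.11 FPKM in Control livers and at 1.63, 1.63 and 3.49 FPKM in Lipophagy livers. Lipophagy livers 1 and 2 were below all Control livers, and Lipophagy liver 3 was above all of them. The log2 change was -0.26 (standard error 0.21, adjusted p = 0.50, limma) and became -0.52 (standard error 0.12, adjusted p = 0.144, range with 1 liver left out 0.144 to 0.808) without Lipophagy liver 3. Together with the other GPAT genes, Agpat6 (GPAT4) and Gpat2, the summed level of the step was 36.5 ± 2.12 FPKM in Control and 43.5 ± 6.04 FPKM in Lipophagy livers (SD, n = 3), with overlapping livers.

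AGPAT enzymes make phosphatidic acid. Agpat2 (chr2:26593057-26604417, minus strand), the form whose loss causes lipodystrophy and fatty liver, was among the most abundant members. Its levels were 126, 137 and 115 FPKM in Control livers and 186, 135 and 127 FPKM in Lipophagy livers. Lipophagy liver 1 alone lay above the Control range, and without it the log2 change fell from 0.23 (standard error 0.15, adjusted p = 0.408, limma) to 0.062. Agpat2 overlaps Egfl7 on the opposite strand, whose mean was 10.4 FPKM, and the strand setting of the counting is not given in the sources used here. Agpat3 (chr10:78269178-78352489, minus strand), an acyltransferase of lysophosphatidic acid and other lysophospholipids, was at 47.3, 50.2 and 51.1 FPKM in Control livers and at 51.7, 55.4 and 50.4 FPKM in Lipophagy livers. The change of Agpat3 was 0.083 (standard error 0.077, 95% interval -0.095 to 0.26, adjusted p = 0.564, limma), and its sign turned under quantile normalization (-0.061).

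Lipins are the phosphatidic acid phosphatases of this chain. Lpin1 (chr12:16535669-16610966, minus strand) was at 5.43, 9.21 and 5.42 FPKM in Control livers and at 17.8, 15.8 and 49.2 FPKM in Lipophagy livers. The lowest Lipophagy value was above the highest Control value, and Lipophagy liver 3 was far above the other livers of its group. Means were 6.69 ± 2.19 and 27.6 ± 18.7 FPKM (SD, n = 3). The log2 change of Lpin1 was 1.75 (standard error 0.39, 95% interval 0.84 to 2.65, adjusted p = 0.134, limma), with rank 179 of 11493 by p. Without Lipophagy liver 3 the ratio of means decreased from 4.13 to 2.51, and the log2 change became 1.25 (standard error 0.21, adjusted p = 0.141). With other single livers left out the change stayed positive and reached 2.03, and the adjusted p of these fits ranged from 0.0985 to 0.335. An estimated 789 to 1182 fragments came from Lpin1 in Control livers and 1987 to 6626 in Lipophagy livers, so counting error was small beside the spread between livers.

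Lpin2 (chr17:71182560-71249817, plus strand), the most abundant lipin in Control livers, was at 31.0, 46.8 and 38.0 FPKM in Control and at 34.0, 39.5 and 62.3 FPKM in Lipophagy livers. Lipophagy liver 3 was again highest, while the other Lipophagy livers lay within the Control range. The change of Lpin2 was 0.20 (standard error 0.23, 95% interval -0.33 to 0.72, adjusted p = 0.652, limma), and without Lipophagy liver 3 it was -0.055. Lpin3 (chr2:160880670-160906002, plus strand) was the least abundant lipin, at 2.14, 1.47 and 1.99 FPKM in Control and 2.54, 2.07 and 1.95 FPKM in Lipophagy livers. Its groups overlapped, with a change of 0.16 (standard error 0.12, adjusted p = 0.473, limma) that ranged from 0.052 without Control liver 2 to 0.23 without Control liver 1.

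Lpin1 made up 14.1%, 16.0% and 11.9% of the summed lipin FPKM in Control livers 1, 2 and 3. In Lipophagy livers 1, 2 and 3 it made up 32.8%, 27.6% and 43.4%. The groups did not overlap, and the mean share differed by 20.6 percentage points (14.0 ± 2.05% and 34.6 ± 8.05%, SD, n = 3), or by 16.2 points without Lipophagy liver 3. The summed lipin level was 38.6, 57.5 and 45.4 FPKM in Control livers and 54.3, 57.4 and 113 FPKM in Lipophagy livers. Thus the sum overlapped between the groups while its makeup did not, and Lpin2 was the largest fraction in every liver.

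**Figure D2:**
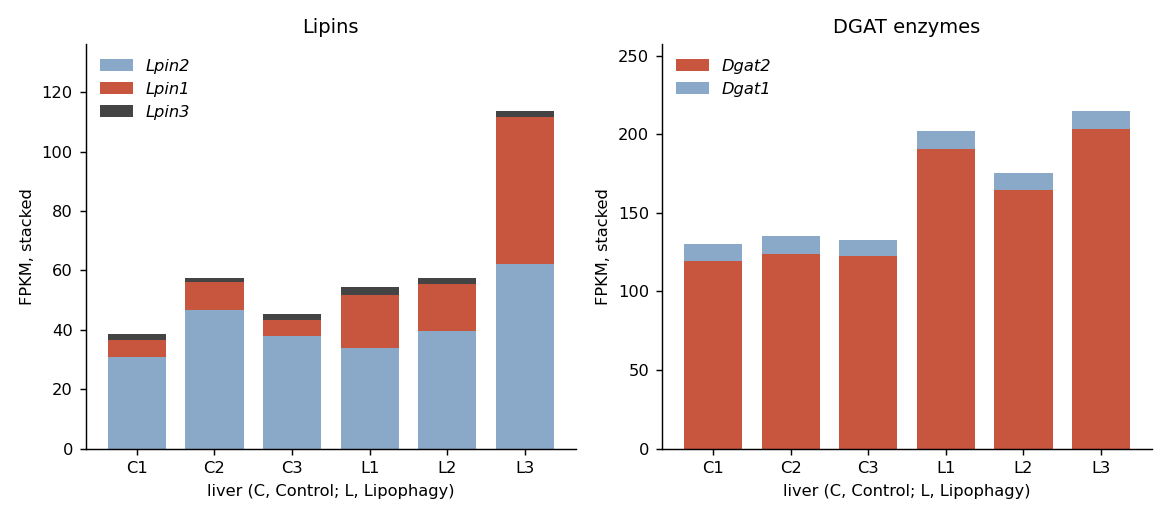
Stacked FPKM (y axis, linear, from 0) of the lipins on the left and the DGAT genes on the right, with 1 bar for each liver (C, Control; L, Lipophagy). Lpin1 takes 27.6% to 43.4% of the lipin bar in Lipophagy livers and 11.9% to 16.0% in Control livers, and Dgat2 takes 91.6% to 94.7% of the DGAT bars.

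DGAT enzymes complete triglyceride, and MGAT enzymes feed diacylglycerol to them. Dgat2 (chr7:99153658-99182719, minus strand), which in hepatocytes handles newly made fatty acids, was at 119, 124 and 123 FPKM in Control livers. In Lipophagy livers it was at 191, 164 and 203 FPKM. The Control values lay close together (122 ± 2.25 FPKM) and all were below the Lipophagy values (186 ± 19.7 FPKM, SD, n = 3). The log2 change of Dgat2 was 0.60 (standard error 0.095, 95% interval 0.38 to 0.82, adjusted p = 0.0915, limma), with rank 27 of 11493 by p. It ranged from 0.53 to 0.69 with 1 liver left out (adjusted p 0.0533 to 0.335), and it was 0.42 under quantile normalization. Unlike that of Lpin1, the Dgat2 value of Lipophagy liver 3 was only slightly above that of Lipophagy liver 1.

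Dgat1 (chr15:76502015-76511953, minus strand), the DGAT that mainly re-esterifies fatty acids taken up from outside, was at 10.6, 11.4 and 10.1 FPKM in Control and 11.4, 11.1 and 11.5 FPKM in Lipophagy livers. The change of Dgat1 was 0.078 (standard error 0.076, 95% interval -0.098 to 0.25, adjusted p = 0.587, limma), an interval that lay below the estimate for Dgat2. With 1 liver left out it ranged from 0.040 without Control liver 3 to 0.12 without Control liver 2. Dgat2 made up 91.8%, 91.6% and 92.4% of summed DGAT FPKM in Control livers and 94.4%, 93.7% and 94.7% in Lipophagy livers, which did not overlap. The summed DGAT level was 133 ± 2.53 FPKM in Control and 197 ± 19.9 FPKM in Lipophagy livers (SD, n = 3). Mogat1 (chr1:78510991-78538173, plus strand), an MGAT enzyme that is raised in fatty liver, was near the lower limit of testing. Its levels were 0.647, 0.524 and 0.564 FPKM in Control and 0.730, 0.294 and 0.310 FPKM in Lipophagy livers, from an estimated 7.32 to 20.7 fragments a liver. The groups overlapped, and the change of Mogat1 was -0.14 (standard error 0.12, adjusted p = 0.532, limma). With 1 liver left out the difference ranged from -0.28 without Lipophagy liver 1 to -0.068 without Lipophagy liver 2, and with a pseudocount of 0.1 it was -0.40. Without Control liver 1 (-0.11) or Lipophagy liver 1 the mean of Mogat1 fell below the filter of 0.5 FPKM, so these are differences of means with no test.

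**Figure D3:**
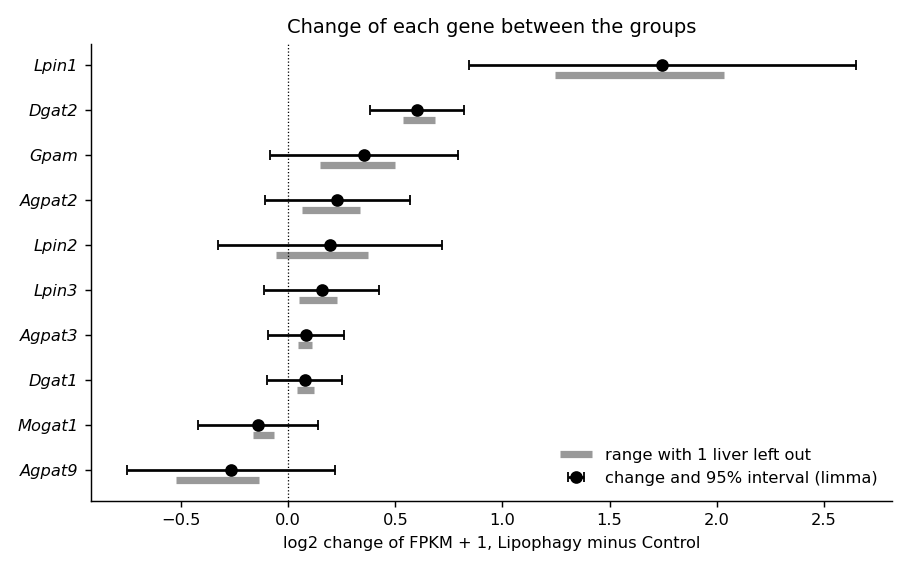
Log2 change of FPKM + 1 (x axis, Lipophagy minus Control) for each of the 10 genes, with the 95% interval from limma as a thin bar and the range over fits with 1 liver left out as a grey bar (for Mogat1 the 4 fits in which it passed the filter). The intervals of Lpin1 and Dgat2 lie above 0, and that of Lpin1 is the widest.

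The livers differed among themselves. Of the 10 members, 5 were highest in Lipophagy liver 3 (Lpin1, Lpin2, Agpat9, Dgat1 and Dgat2), 4 in Lipophagy liver 1 (Gpam, Agpat2, Lpin3 and Mogat1), 1 in Lipophagy liver 2 (Agpat3) and 0 in a Control liver. Of all 11493 tested genes, 3270, 1418 and 1893 were highest in Lipophagy livers 1, 2 and 3 (16.5% in liver 3), and 2103, 1296 and 1513 in Control livers 1, 2 and 3. FPKM sums were higher in Lipophagy livers (709993 to 782392) than in Control livers (622696 to 681138), and quantile normalization changed the share of higher genes among those with an unadjusted p below 0.05 from 59.2% to 45.3%. Lpin1 and Dgat2 kept an unadjusted p below 0.05 and a positive change in limma under all 16 alternative settings, which included quantile normalization.

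Other genes of glycerolipid synthesis were given by a list of 46, of which 35 passed the filter of a mean of at least 0.5 FPKM. In limma 0 of 35 had an adjusted p below 0.05, and at the unadjusted threshold 4 were higher (11.5% over all tested genes) and 0 lower (7.97%). Without Lipophagy liver 3 these became 3 higher (Gpd1, Acsl1 and Acsl5) and 2 lower (Agpat1 and Lpgat1), with 14.0% and 8.20% over all genes. Their median log2 change was 0.042, with 22 of 35 higher and 13 lower in the mean, against a median of 0.020 with 6259 higher and 5234 lower of all 11493 tested genes. Gpd1, which makes glycerol 3-phosphate from a glycolytic intermediate, had the largest change of the list on the log2(FPKM + 1) scale, while the ratio of means was higher for the scarce Awat2 (1.64) than for Gpd1 (1.39). It was at 132, 157 and 139 FPKM in Control livers and 252, 184 and 160 FPKM in Lipophagy livers, which did not overlap (change 0.45, standard error 0.16, adjusted p = 0.207, limma). In the same supply step Gyk, the glycerol kinase, had the largest negative change (-0.13, adjusted p = 0.470, limma).

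Acyl-CoA synthetases activate fatty acids for each acyl transfer. All 4 tested genes of this step had a higher mean (6259 of 11493 over all tested genes), 2 of them with an unadjusted p below 0.05 (11.5% over all). Acsl1, the main hepatic form, was at 103, 97.7 and 99.5 FPKM in Control and 116, 136 and 122 FPKM in Lipophagy livers, which did not overlap (change 0.31, standard error 0.086, adjusted p = 0.157, limma). Acsl3, a form found on nascent droplets, had overlapping livers and a change of 0.34 with a standard error of 0.14 (limma adjusted p = 0.241). The other gene with an unadjusted p below 0.05 was Awat2, an acyltransferase related to DGAT2, which was scarce (0.648 ± 0.173 and 1.06 ± 0.218 FPKM, SD, n = 3).

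In the remaining steps except Awat2 the changes lay between -0.24 and 0.25, and among tested genes the groups overlapped for all but Cds2. Agpat6 (GPAT4) had a change of 0.25 and Gpat2 one of -0.013. Among the other AGPAT and lysophospholipid acyltransferases the extremes were Aup1 (0.12) and Lpgat1 (-0.19), and among the other phosphatidate phosphatases Ppap2a (0.16) and Ppapdc2 (-0.084). Ctdnep1 and Cnep1r1, the phosphatase complex that acts on lipins, had changes of -0.010 and -0.081. The diacylglycerol kinases, which turn diacylglycerol back to phosphatidic acid, ranged from Dgkq (-0.18) to Dgka (0.063). In the CDP-diacylglycerol branch, which leads to phosphatidylinositol and cardiolipin, Tamm41 had the highest change (0.15), and Cds2 was lower in every Lipophagy liver (8.74 ± 0.131 and 8.15 ± 0.288 FPKM, SD, n = 3; change -0.090). The droplet assembly genes ranged from Tmem159 (-0.24) to Fitm2 (0.24). Without Lipophagy liver 3 the changes of Agpat6 (0.13), Tmem159 (-0.15) and Ppapdc2 (-0.046) were smaller and those of Dgkq (-0.27) and Gyk (-0.20) larger in size, and Gpat2 (0.0033) and Ctdnep1 (0.028) turned sign.

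**Figure D4:**
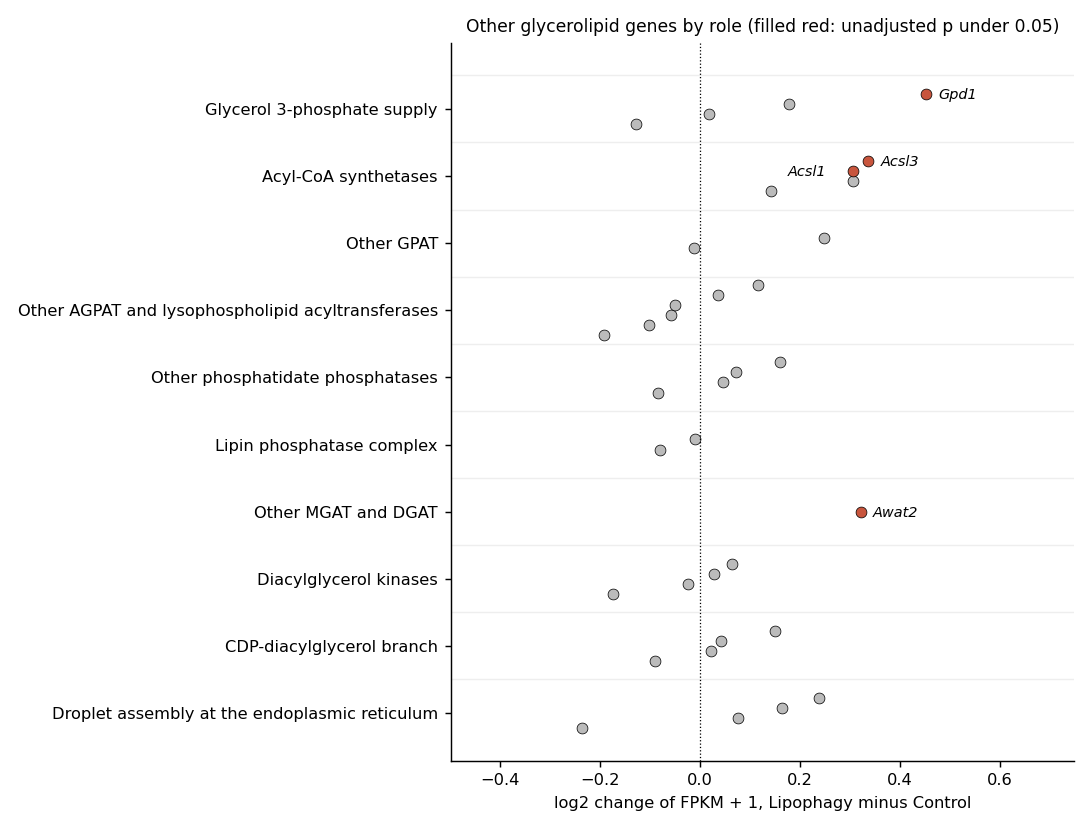
Log2 change of FPKM + 1 (x axis, Lipophagy minus Control) of the 35 tested glycerolipid genes other than the 10 members, 1 row for each step and 1 point for each gene. The points with an unadjusted p below 0.05, filled red, are Gpd1, Acsl3, Acsl1 and Awat2, and all lie to the right of 0.

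The genes whose values followed Lpin1 most closely over the 6 livers were found by the root mean square distance between log2(FPKM + 1) values, each centred on its own mean. They were Ppp1r3b (0.298), a glycogen-targeting subunit of protein phosphatase 1, Tsc22d3 (0.348), the glucocorticoid-induced leucine zipper, Ccrn4l (0.447), the deadenylase nocturnin, G0s2 (0.448), an inhibitor of adipose triglyceride lipase, and Rhobtb1 (0.496). Ppp1r3b was at 6.75, 13.9 and 8.97 FPKM in Control livers and 20.1, 15.3 and 42.7 FPKM in Lipophagy livers. Tsc22d3 was at 15.9, 21.4 and 18.1 FPKM in Control livers and 35.9, 34.5 and 68.6 FPKM in Lipophagy livers. Both shared with Lpin1 the high value in Lipophagy liver 3 and groups that did not overlap. Such likeness follows from choosing them by their distance to Lpin1 over these same livers. Over the 5 livers without Lipophagy liver 3 the nearest genes were Gdf15 (0.133), Dnajb9 (0.174), Tsc22d3 (0.222), Bhlha15 (0.243) and Ppp1r3b (0.250). Only Tsc22d3 and Ppp1r3b were among the nearest 5 in both, and these 5 livers are part of the same 6. Without that liver Gdf15 and Dnajb9 were closer to Lpin1 than either.

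Of the list of glucocorticoid and fasting responsive genes, 11 were tested in limma and 0 had an adjusted p below 0.05. At the unadjusted threshold 6 were higher and 1 lower, against 11.5% and 7.97% of all tested genes, with a median change of 0.63. Without Lipophagy liver 3 they were 5 higher and 1 lower, against 14.0% and 8.20%, with a median of 0.43. The largest change of this list was that of Tsc22d3 (1.22, standard error 0.25, adjusted p = 0.124, limma). Fgf21, a fasting hormone, went the other way and did not overlap, at 3.52, 3.61 and 2.34 FPKM in Control livers and 1.41, 1.58 and 0.986 FPKM in Lipophagy livers (change -0.83, adjusted p = 0.111, limma). Lipophagy liver 3 was the highest of the 6 livers for 7 of these 11 genes and for 7 of 10 clock genes (16.5% over all). Among the clock genes 1 (Cry1) was higher and 0 were lower at the unadjusted threshold (11.5% and 7.97% over all), and 0 of 10 passed it without Lipophagy liver 3. Ciart, a repressor within the clock, was at 2.46, 2.62 and 4.76 FPKM in Control livers and 2.98, 4.50 and 35.5 FPKM in Lipophagy livers, so that Lipophagy liver 3 stood alone. Without that liver the change of Ciart decreased from 1.16 to 0.17. Arntl had the largest negative change of the clock list (-0.26), but without Lipophagy liver 3 it was at -0.091 and Per3 was lowest (-0.37). The part of these differences between livers in the Lpin1 values was not tested.

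**Figure D5:**
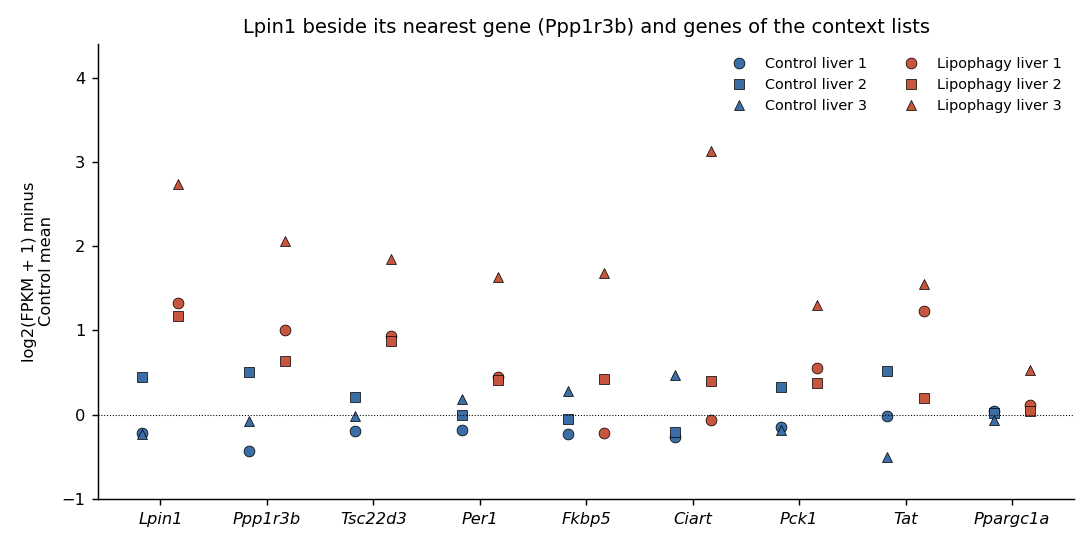
Log2(FPKM + 1) minus the mean of the Control livers (y axis) in each of the 6 livers, for Lpin1, its nearest gene Ppp1r3b and 7 genes chosen from the glucocorticoid, fasting, clock and coactivator lists after their values were seen. Lipophagy liver 3 (red triangle) is the highest point for all 9 genes shown, and for Ciart it stands alone. Over the full lists it is highest for 7 of 11 glucocorticoid and fasting genes and 7 of 10 clock genes, and the other genes of these lists are not drawn.

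Genes that act with lipin 1 or upstream of it were described by further lists. Of 5 coactivator partners, 0 had an unadjusted p below 0.05 in limma (11.5% higher and 7.97% lower over all tested genes), and the extremes were Ppargc1a (0.23) and Ppara (-0.049), which without Lipophagy liver 3 were at 0.079 and -0.24. Ppargc1a, the coactivator PGC-1α, was scarce, at 0.854, 0.825 and 0.733 FPKM in Control livers and 0.949, 0.861 and 1.61 FPKM in Lipophagy livers, and its groups did not overlap. Of 7 factors known to drive or restrain Lpin1, 0 had an unadjusted p below 0.05 (the same 11.5% and 7.97% over all), with the extremes Srebf1 (0.59, standard error 0.31) and Tfe3 (-0.24, standard error 0.10). Srebf1, the lipogenic factor SREBP1, was at 48.0, 37.2 and 28.7 FPKM in Control livers and 90.4, 36.8 and 53.8 FPKM in Lipophagy livers, which overlapped.

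Markers of cell types also moved with the groups. The summed FPKM of 8 hepatocyte markers was 56630 to 63834 in Control and 68746 to 90651 in Lipophagy livers, and most of it was Alb (37748 and 52739 FPKM in the means). Of the 8, 7 were higher in the mean (6259 of 11493 over all tested genes) and 2 were so at an unadjusted p below 0.05 (11.5%), with Ass1 (0.72) and Apoa1 (-0.062) as the extremes. The sum of 8 stellate cell markers was 26.6 to 28.7 in Control and 19.5 to 20.7 FPKM in Lipophagy livers, with 5 of 8 lower at an unadjusted p below 0.05 (7.97% over all tested genes), Col1a1 lowest (-0.75) and Lrat highest (0.25). Lymphocyte markers summed to 3.85 to 4.11 and 3.04 to 3.22 FPKM, whereas the sums for macrophages (498 to 661 and 486 to 611), endothelium (24.5 to 30.5 and 28.2 to 44.8), bile duct (137 to 247 and 92.0 to 196) and neutrophils (17.7 to 30.1 and 14.99 to 17.7) overlapped. The macrophage sum was mostly Lyz2 (417 and 373 FPKM in the means). At the unadjusted threshold in limma 0 of 8 macrophage markers were higher and 2 lower (Cd68 and Csf1r, both without overlap). Of 2 tested neutrophil and 2 tested lymphocyte markers, 1 each was lower (S100a9 and Nkg7). For endothelium (7 tested) and bile duct (5 tested) 0 passed, against 11.5% higher and 7.97% lower over all tested genes. The adipocyte markers summed to 118 to 162 FPKM in Control and 84.6 to 99.7 FPKM in Lipophagy livers, mostly from Plin1 (132 ± 24.3 and 92.6 ± 9.23 FPKM, SD, n = 3), whose sequence is part of the virus. Lep was at 0 in all livers, and the muscle markers Myh4 and Ckm were at 0 in all livers. Ass1, a urea cycle enzyme, was at 61.6 ± 1.31 and 103 ± 14.1 FPKM (SD, n = 3). Its adjusted p was 0.0832 in limma and 0.0417 without Lipophagy liver 3. Among the other lists the highest and lowest changes were those of Clec4f (0.17) and Cd68 (-0.38) for macrophages, Clec4g (0.43) and Pecam1 (-0.11) for endothelium, and Sox9 (-0.060) and Spp1 (-0.71) for bile duct. Lower means were also seen for Nkg7 (-0.26) of the lymphocyte and S100a9 (-0.60) of the neutrophil markers. The part of these differences in the Lpin1 and Dgat2 values was not tested.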

How the data were processed

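RNA had been extracted from 6 livers, and poly(A) libraries were made with a stranded kit and sequenced in paired-end mode (100 bp) on an instrument that the labels and the methods name differently. For each gene symbol and liver the deposited table gives FPKM, that is, fragments scaled by the authors to transcript length and to the total mapped. The submitters' processing notes name TopHat2 2.0.13, Bowtie2 2.2.3, SAMtools 0.1.19, Cufflinks 2.2.1 and mm10, without roles; the annotation is not given in the sources used here. FPKM already divides by length and total, so a large rise of abundant transcripts lowers the others.

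Groups were taken from the labels. Genes whose mean reached 0.5 FPKM (11493, all members included) were tested on log2(FPKM + 1) with limma 3.58.1 in R 4.3.3 (moderated variance with intensity trend, no covariates, two-sided), with Benjamini-Hochberg adjustment over all tested genes and a threshold of 0.05. Changes are on the log2(FPKM + 1) scale, which understates those of scarce genes. Shares of summed FPKM and distances between genes are descriptions without a test. The procedure was tested on simulated data. Alternatives were other pseudocounts, filters and normalizations, no trend, array quality weights, the replicate number as a block and each liver left out.

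Depth was estimated from low FPKM values, which are multiples of 1 fragment, with GENCODE M21 transcript lengths less 150 bases, as 23.6 to 34.0 M fragments in Control and 23.1 to 24.8 M in Lipophagy livers. At these depths 75.8% to 79.7% of low values lay within 0.1 of a whole fragment, against a median of 14.1% to 16.7% at other depths. Fragment numbers are such estimates. Positions are from GENCODE M21 (GRCm38, that is mm10), and symbols are those of the deposited table.

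All members were named with every liver. From each list, genes with an adjusted p below 0.05 and, in each step, the largest rise and fall were named, with the 5 genes nearest to Lpin1. Acsl1, Acsl5, Agpat1, Cry1, Per3, Alb, Lyz2, Csf1r and the genes plotted with Lpin1 other than Ppp1r3b, Tsc22d3, Ciart and Ppargc1a lie outside this rule and were chosen after their values were seen. The members and lists were chosen with earlier results of these data known. Python 3.11.15 was used with pandas 2.3.3 and numpy 2.4.6, and figures were drawn in matplotlib 3.10.9.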

Additional observations from a re-analysis of the deposited data

How the results depend on the processing

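No member and no other glycerolipid gene had an adjusted p below 0.05 in limma under any setting run. The number of genes with an adjusted p below 0.05 over the whole table was 3, and it became 1 without a filter, 39 with array quality weights and 43 with the replicate block. With 1 liver left out it ranged from 2 to 11, namely 7 if Control liver 2, 5 if Lipophagy liver 2 and 11 if Lipophagy liver 3 was dropped. The number of members with an unadjusted p below 0.05, a count chosen after seeing the data, was 2. Over all 11493 tested genes 1327 were higher and 916 lower at that threshold. It became 4 with array quality weights (Gpam and Agpat9 in addition), where 1531 and 1115 of all genes passed. With the replicate block it was 3 (Gpam in addition, standard error 0.094 in place of 0.19), where 1133 and 911 passed. With 1 liver left out it was 2 to 3, with 801 to 1609 higher and 596 to 943 lower over all. The difference in the Dgat2 share of DGAT FPKM went from 2.29 to 1.78 percentage points under quantile normalization. The signs of Agpat3 (-0.061, quantile normalization) and Lpin2 (-0.055, without Lipophagy liver 3, in a range of -0.055 to 0.37 with 1 liver left out) turned, and the other 8 members kept theirs in every fit that held them (Mogat1 missed the filter at a mean of 1 FPKM and without Control liver 1 or Lipophagy liver 1, and its untested differences with a liver left out were added after seeing the data). The cause of these moves was not tested. Over the alternatives 225 values were labelled the same, 8 moved and 2 turned sign. For the change of a member this label asked only for the same sign and the same side of the adjusted p threshold. It therefore does not measure how stable the size of a change was. Agpat2, for example, was labelled the same at 0.23 in the main fit and 0.050 under quantile normalization. The settings without Lipophagy liver 3 for lists and nearest genes were also chosen after seeing the data.

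Control and Lipophagy livers share the numbers 1 to 3. Deviations from the group means correlated at 0.25, 0.23 and -0.057 for numbers 1, 2 and 3. Lipophagy liver 2 correlated at 0.251 with Control liver 3. With deviations from means of 3 livers these values cannot decide whether livers of the same number were handled together. The labels do not say so either. With 3 livers a group the intervals are wide. An exact permutation test of a single value could not give a p below 0.1. Of the members Mogat1 had the fewest estimated fragments (7.32 to 20.7 a liver), and the part of depth in its result was not tested.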
